A study of Homo sapiens with 6 samples.

Results

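The miR-548 family is a large group of human miRNAs with many near-identical copies. Its members were taken as every miRNA probe on the array with a name that begins with miR-548, which gave 73 of 2565 probes. These 73 probes carry 80 miR-548 names, since 6 of them are printed with more than 1 name, and 1 of those is shared with miR-570-5p. The samples came from Panc-1, an established human cell line of pancreatic ductal adenocarcinoma. Untreated cells (control) gave 3 arrays, and cells exposed for 72 h to TGF-β, at a dose of 10 ng/mL, gave 3 more. TGF-β is a secreted cytokine that drives epithelial cells towards a mesenchymal state. The comparison asks which miRNAs differ in level after that treatment. Each group had a slide to itself, so that treatment cannot be told apart from slide, and the number of arrays limits the precision.

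A miRNA is cut from a hairpin precursor, and each hairpin can give a mature strand from its 5′ side (5p) and from its 3′ side (3p). The miR-548 hairpins are described as derived from MADE1, a short DNA transposon with inverted repeats, so that a transcribed copy folds back on itself. Copies are spread over many chromosomes, often inside other genes.

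The sequences below show what the members share and where those with a signal differ. They are from RefSeq (GRCh38.p14), in which 54 of the 80 miR-548 names matched a mature sequence. Capitals mark the seed, bases 2 to 8, with which a miRNA pairs to its targets. The first group has the seed of 11 matched names, the most of any seed, and the 3 members of it shown are those that later entered the comparison of groups.
miR-548b-5p: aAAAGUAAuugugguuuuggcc
miR-548w: aAAAGUAAcugcgguuuuugccu
miR-548aq-5p: gAAAGUAAuugcuguuuuugcc
The next pair shares another seed, and the 18 bases of miR-548av-5p are the start of the 22 bases of miR-548k.
miR-548k: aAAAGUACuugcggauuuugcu
miR-548av-5p: aAAAGUACuugcggauuu
From the 3p side, miR-548b-3p has a seed of its own among the matched names, and miR-548aq-3p has the seed of 7 names.
miR-548b-3p: cAAGAACCucaguugcuuuugu
miR-548aq-3p: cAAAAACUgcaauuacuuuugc
The last 3 are shown for a seed shared by 4 names (miR-548x-5p) and for signals on some arrays (miR-548e-5p and miR-548al).
miR-548x-5p: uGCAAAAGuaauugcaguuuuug
miR-548e-5p: cAAAAGCAaucgcgguuuuugc
miR-548al: aACGGCAAugacuuuuguacca

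The matched names had 29 different seeds, of which 21 belonged to 1 name each. A motif chosen after the sequences were seen, AAAGUAA, was in 17 of the 54 sequences (31.5%), anywhere in the strand, and its reverse complement UUACUUU was in 17 others. No sequence held both, and 20 held neither. Of 2226 other miRNA names on the array with a sequence, 0.135% held AAAGUAA and 0.18% held UUACUUU. The arms of a hairpin were close to complementary: laid against each other without gaps, miR-548b-5p and miR-548b-3p paired at 18 of 20 positions, 3 of them G with U. In 13 precursors with both arms matched, 15 to 21 positions paired. The mature sequence nearest to miR-548k among the other members, miR-548ab, was 2 single-base edits away. How far a probe also takes up RNA of close relatives was not tested.

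In GRCh38.p14, the mature strands of miR-548b lie on the minus strand at chr6:119069062-119069083 (3p) and chr6:119069098-119069119 (5p), within the interval of FAM184A. miR-548k lies on the plus strand at chr11:70283986-70284007 within PPFIA1, and miR-548w on the plus strand at chr16:26025246-26025268 within HS3ST4. miR-548aq-5p lies on the minus strand at chr3:185767883-185767904 within IGF2BP2. Exons and introns were not used here, and the array files name no genome build.

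Most miR-548 probes were not detected. A probe was counted as detected on an array when its signal was above the mean of the blank spots plus 2 SD, which lay 1.06 to 1.54 intensity units above the blank mean. Of the 73 probes, 13, 21 and 13 were detected on control replicates 1, 2 and 3, against 16, 19 and 12 on the corresponding TGF-β replicates. Neither group was above the other in these counts. Detected on no array were 39 probes (53.4%), on 1 array 16, and on all 6 arrays 7 (9.59%). Of all 2565 miRNA probes, 522 (20.4%) were detected on no array and 1282 on all 6.

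**Figure D1:**
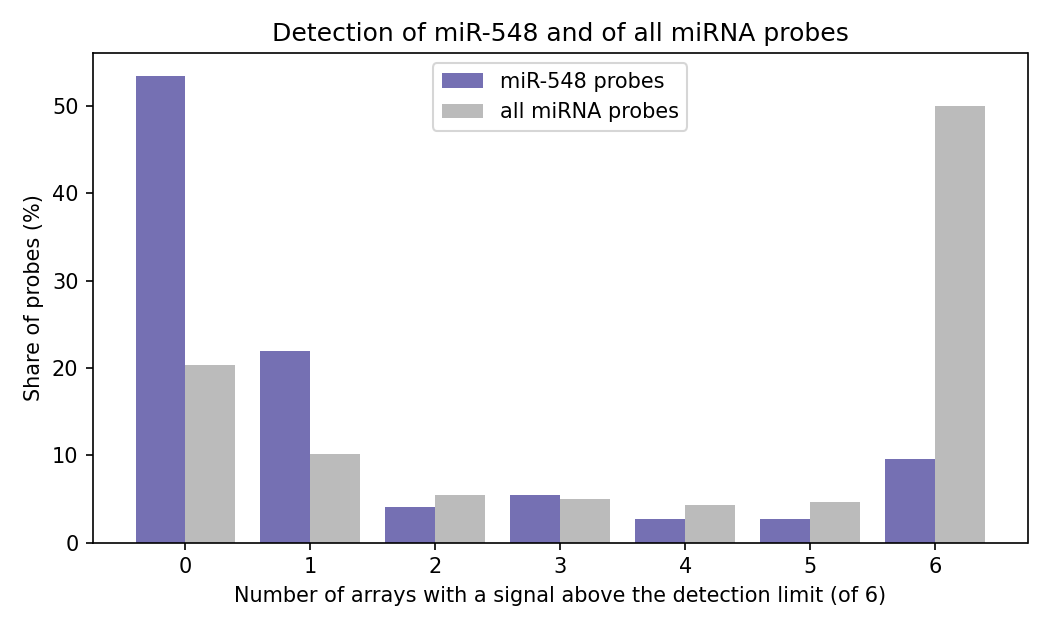
Share of probes (percent, vertical axis) by the number of arrays, 0 to 6, on which they were detected, for the 73 miR-548 probes and all 2565 miRNA probes. The miR-548 bar is highest at 0 arrays (53.4%), and the bar of all miRNAs is highest at 6 arrays (1282 probes).

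To enter the comparison of groups, a probe had to be detected on all 3 arrays of control cells or all 3 of treated cells, and 9 of the 73 miR-548 probes did so (12.3%), against 1457 of 2565 miRNA probes (56.8%). The 9 were miR-548b-3p, miR-548b-5p, miR-548k, miR-548d-5p, miR-548e-3p, miR-548w, miR-548aq-5p, the probe of miR-548aa with miR-548t-3p, and the probe of miR-548c-5p with miR-548o-5p and miR-548am-5p. Of these, miR-548w passed through the TGF-β group and miR-548aq-5p through the control group, and the other 7 were detected on all arrays. By the arm in the name, 4 of 23 probes named 5p and 2 of 26 named 3p passed, as did 2 of 21 with no arm in the name. Of 3 probes that join a name with an arm and a name without one, the probe of miR-548aa with miR-548t-3p passed.

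The other 64 miR-548 probes gave signals mostly near the blank mean, with medians of -0.03 to 0.25 intensity units above it on the 6 arrays. They were above the limit in 6.25%, 18.8% and 7.81% of cases on the 3 control arrays, against 10.9%, 15.6% and 6.25% on those of TGF-β. Of the 320 blank spots, 7.81%, 7.19% and 6.88% were above it on the same control arrays, against 5.62%, 5.94% and 6.25% on those of TGF-β. Of 85 spots that the files name No Probe, 17.6% to 28.2% were above it. Of 16 spots named Negative Control 1, all 16 were above it on 5 arrays and 12 on control replicate 3. What these named spots hold is not given in the sources used here, so detection means a signal above the blank spots and does not show that the miRNA was present. The blank spots were not filtered, while the 64 probes were chosen for not passing the filter set by this limit. The low share of the 64 is thus partly fixed by that choice. On control replicate 1, control replicate 3 and TGF-β replicate 3 the 64 probes were within 1 percentage point of the blank spots or below them. On control replicate 2, TGF-β replicate 1 and TGF-β replicate 2 they were above the blank spots. On every array they were below the spots named No Probe. With the probes that passed included, miR-548 probes were above the limit in 16.4% to 28.8% of cases. Most of the 64 have only a bound on their level, and no fold change is given for any of them.

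**Figure D2:**
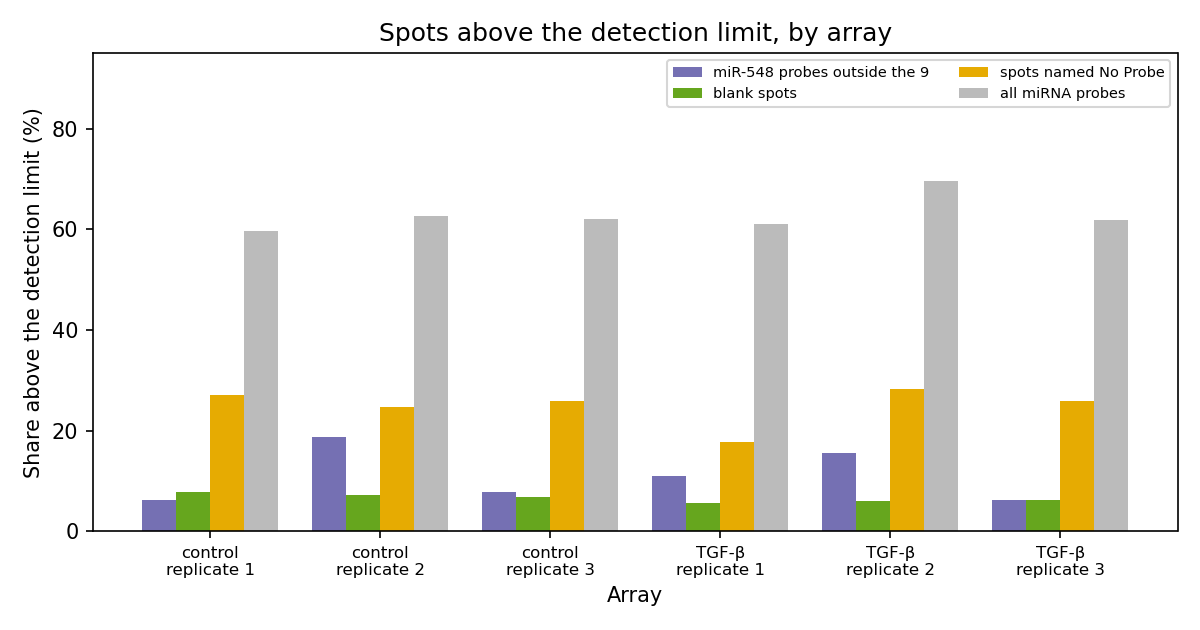
Share of spots above the detection limit (percent, vertical axis) on each of the 6 arrays, for the 64 miR-548 probes that did not pass the filter, the blank spots, the spots named No Probe and all miRNA probes. The 64 probes lie between 6.25% and 18.8%, and all miRNA probes between 59.7% and 69.7%.

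Among the 64, detection was scattered over arrays. miR-548ab and miR-548ay-3p were detected on 4 arrays, and miR-548e-5p, miR-548a-3p, miR-548j-5p and miR-548v on 3. The following 3 were singled out after their values were seen, and values are in the order of replicates 1, 2 and 3, here and for the other members. The signal of miR-548ax above the blank mean was -0.227, 0.0358 and 13.1 intensity units for control, against 0.119, 1.16 and 0.613 for TGF-β. Its value thus rests on control replicate 3. The signal of miR-548al was 6.43, 0.619 and 1.12 units for control, against 5.45, -0.668 and 0.253 for TGF-β. It was high on replicate 1 of each group, which has the same position on both slides, and near the blank mean elsewhere. A link with that position was not tested. The signal of miR-548e-5p was 0.451, 2.64 and 3.33 units for control, against 1.60, 1.01 and 1.35 for TGF-β, with the groups overlapping.

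The 9 probes that passed the filter, called the detected probes from here on and given as signal above the blank mean in intensity units, ranged widely in signal. Their levels are not ranked against each other, since probes bind with different strength. The signal of miR-548b-3p was 25.8, 24.2 and 28.2 for control (mean 26.1 ± 2.03, SD, n = 3), against 22.8, 21.6 and 21.1 for TGF-β (21.8 ± 0.912, SD, n = 3). Every TGF-β array was below every control array before normalization, and it lay 31.0 to 40.8 blank SDs above the blank mean. The signal of its other arm, miR-548b-5p, was 2.90, 3.03 and 3.69 for control (3.20 ± 0.421, SD, n = 3), against 1.50, 2.05 and 1.86 for TGF-β (1.81 ± 0.280, SD, n = 3). The groups were apart here too, with all control arrays high, but the lowest TGF-β value was 2.29 blank SDs above the blank mean, close to the limit of 2.

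The signal of miR-548k was 5.74, 6.99 and 10.5 for control, against 4.70, 6.97 and 7.57 for TGF-β. Replicate 1 was lowest and replicate 3 highest in both groups, and the groups overlapped. On miR-548av-5p, whose sequence is the start of that of miR-548k, 1 array was above the limit, TGF-β replicate 2. The probe of miR-548aa and miR-548t-3p gave 6.07, 6.38 and 6.13 for control, against 6.32, 7.03 and 6.32 for TGF-β. Its arrays lay close together and the groups overlapped.

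The signal of miR-548d-5p was 3.00, 2.87 and 4.80 for control, against 2.75, 3.09 and 5.24 for TGF-β. Replicate 3 was high in both groups, which overlapped. The signal of miR-548e-3p was 2.62, 3.67 and 4.40 for control, against 2.94, 3.00 and 2.41 for TGF-β. Control replicates 2 and 3 were above the TGF-β arrays and control replicate 1 was among them. The probe of miR-548c-5p, miR-548o-5p and miR-548am-5p gave 2.84, 1.65 and 2.53 for control, against 1.69, 3.20 and 2.15 for TGF-β, and the groups overlapped.

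The signal of miR-548w was 1.93, 1.50 and 0.818 for control, against 1.66, 2.98 and 3.17 for TGF-β. TGF-β replicates 2 and 3 were above all control arrays and TGF-β replicate 1 was among them, while control replicate 3 was not well above background. The signal of miR-548aq-5p was 1.45, 1.92 and 2.24 for control, against 1.32, 1.97 and 0.115 for TGF-β. TGF-β replicate 3 was not well above background, and the other arrays overlapped.

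**Figure D3:**
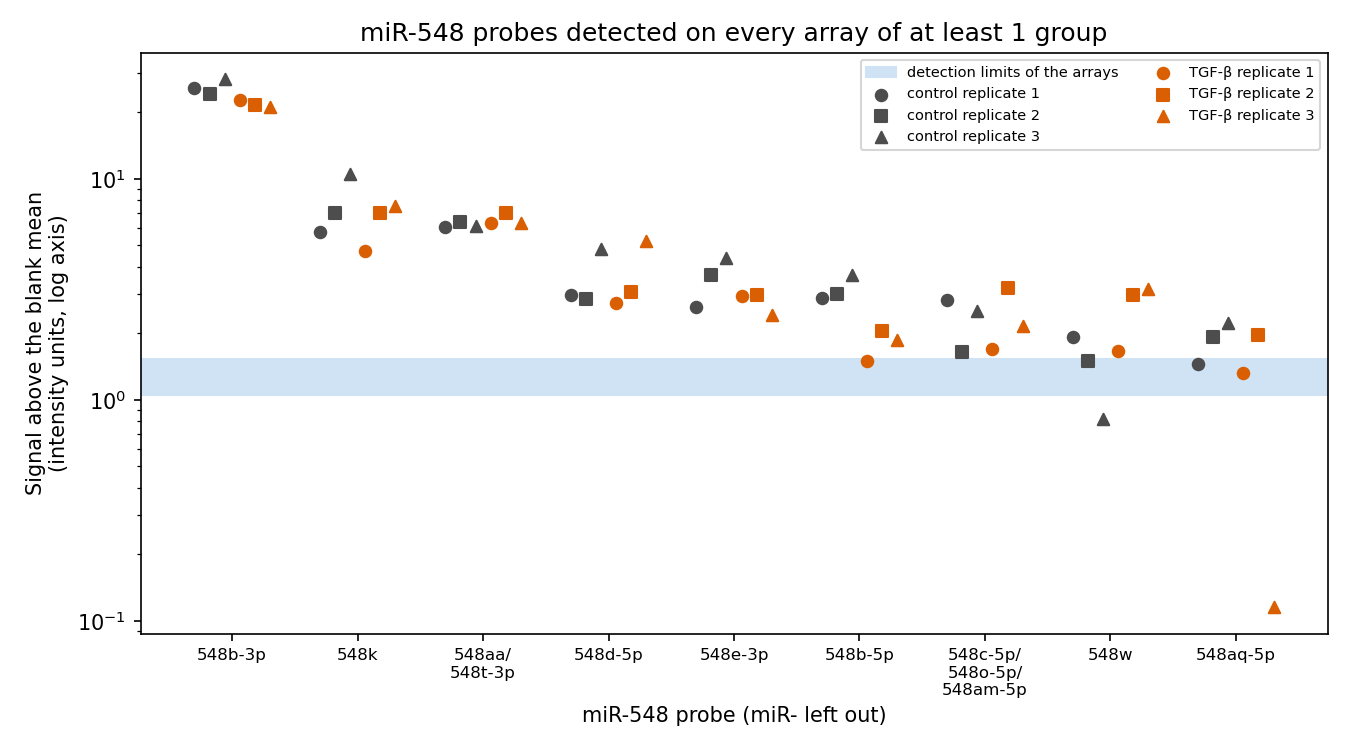
Signal above the blank mean (intensity units, log axis) of the 9 detected miR-548 probes, 1 point per array, with the band of the 6 detection limits. For miR-548b-3p and miR-548b-5p the TGF-β points lie below the control points, and miR-548w on control replicate 3 (0.818) and miR-548aq-5p on TGF-β replicate 3 (0.115) lie below the band.

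After normalization between arrays, none of the 9 probes passed an adjusted p of 0.05 in limma's fit over all 1457 miRNAs, in which 58 (3.98%) passed, 20 lower and 38 higher with TGF-β. At an unadjusted p of 0.05, 2 of the 9 passed, miR-548b-5p and miR-548b-3p, against 13.7% of all miRNAs tested. The methods' t-test passed an unadjusted p of 0.05 for 1 of the 9, miR-548b-5p, and for 195 of all miRNAs. After Benjamini-Hochberg adjustment the same probe and 17 of all miRNAs passed. After Bonferroni adjustment, which was added after seeing the data, 0 of the 9 and 5 of all miRNAs passed. The study's methods name the test used here, and a Bonferroni post-hoc test, for comparisons between groups in general. They name no test for the arrays, whose miRNAs the paper selected by fold change. The groups were apart for 1 of the 9 on the lower side, again miR-548b-5p, against 10.1% of all miRNAs tested, and for 0 of the 9 on the higher side, against 8.79%. Of the 7 probes detected on all arrays, the log2 fold change was below 0 for 4 and above 0 for 3, with a median of -0.26. Over all 1282 miRNAs detected on all arrays, 54.1% were below 0 and the median was -0.02. The 3 estimates above 0 were near it, and each turned sign under some alternatives. The signs of miR-548w and miR-548aq-5p are left out of this count, since each passed the filter through 1 group. The median of the 7 was -0.10 without TGF-β replicate 1 and -0.14 without control replicate 3. It was -0.12 in the deposited values, -0.05 without background correction, -0.06 with 16 units added to the blank-corrected signal and -0.0011 with limma's normexp on the local background and an offset of 50 units.

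miR-548b-5p had a normalized log2 level of 1.68, 1.68 and 1.70 for control, against 0.70, 0.89 and 0.90 for TGF-β. All TGF-β arrays were below all control arrays, and the control arrays differed little from each other. The log2 fold change of miR-548b-5p was -0.85 (SE 0.25, 95% interval -1.40 to -0.31), with an adjusted p of 0.109 by limma with the intensity trend. Its exact permutation p, 2-sided, was 0.1, the smallest that 3 arrays against 3 can give. The call rests on the test: the adjusted p of miR-548b-5p was 0.013 by limma without the trend and 0.0252 by the methods' t-test with Benjamini-Hochberg adjustment, but 0.327 with Bonferroni adjustment. The log2 fold change was 0.01 with limma's normexp on the local background and an offset of 50 units, a setting that changes the background, the method and the offset together, and -0.11 with 16 units added to the blank-corrected signal, since an added constant shrinks the fold changes of dim probes. Without background correction the fold change of miR-548b-5p was -0.09. It was -0.72 in the deposited values and -0.83 without normalization between arrays, with a limma adjusted p of 0.416 in each.

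miR-548b-3p had a normalized log2 level of 4.87, 4.75 and 4.58 for control, against 4.62, 4.36 and 4.38 for TGF-β. TGF-β replicate 1 was above control replicate 3, so that the groups overlapped once the arrays were normalized. Its log2 fold change was -0.28 (SE 0.12, 95% interval -0.55 to -0.01), with an adjusted p of 0.346 by limma and an exact permutation p of 0.2. It was 0.15 with the same normexp setting and offset, and -0.17 with 16 units added. Without background correction it was -0.15, and in the deposited values -0.12.

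The intervals of the other 7 probes all included 0. Estimates were -0.35 for miR-548e-3p (95% interval -0.86 to 0.17) and -0.26 for miR-548k (-0.69 to 0.17; -0.10 without TGF-β replicate 1 and -0.14 without control replicate 3). Without background correction, with 16 units added and with the normexp setting, miR-548e-3p was at -0.05, -0.06 and -0.02, and miR-548k at -0.07, -0.08 and -0.08; in the deposited values miR-548k was at -0.12. For the probe of miR-548aa and miR-548t-3p, the estimate was 0.08 (-0.29 to 0.45; -0.055 to 0.15 with an array left out). It was 0.02 for miR-548d-5p (-0.57 to 0.62), with -0.25 to 0.17 when an array was left out. For the probe of miR-548c-5p, miR-548o-5p and miR-548am-5p it was 0.00 (-0.70 to 0.70), with -0.19 to 0.22 when an array was left out, so that none of these 3 has a settled sign. In the deposited values these 3 were higher, at 0.20, 0.20 and 0.05 in the same order. The estimates of miR-548w and miR-548aq-5p each rest on an array below the detection limit that was set to the floor, in the group through which the probe did not pass, and their directions are not read. For miR-548w the fitted log2 difference was 0.72 (-0.12 to 1.56), 0.59 with the floor at the detection limit and 0.42 without control replicate 3. For miR-548aq-5p it was -0.45 (-1.24 to 0.35), -0.32 with the floor at the detection limit and -0.22 without TGF-β replicate 3. Without background correction, with 16 units added and with the normexp setting, miR-548w was at 0.07, 0.08 and 0.005. Under the same settings miR-548aq-5p was at -0.05, -0.06 and -0.02, and in the deposited values at -0.17. The 95% intervals above are wide for signals so near the background, and the absence of a change is not shown for any of the probes.

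**Figure D4:**
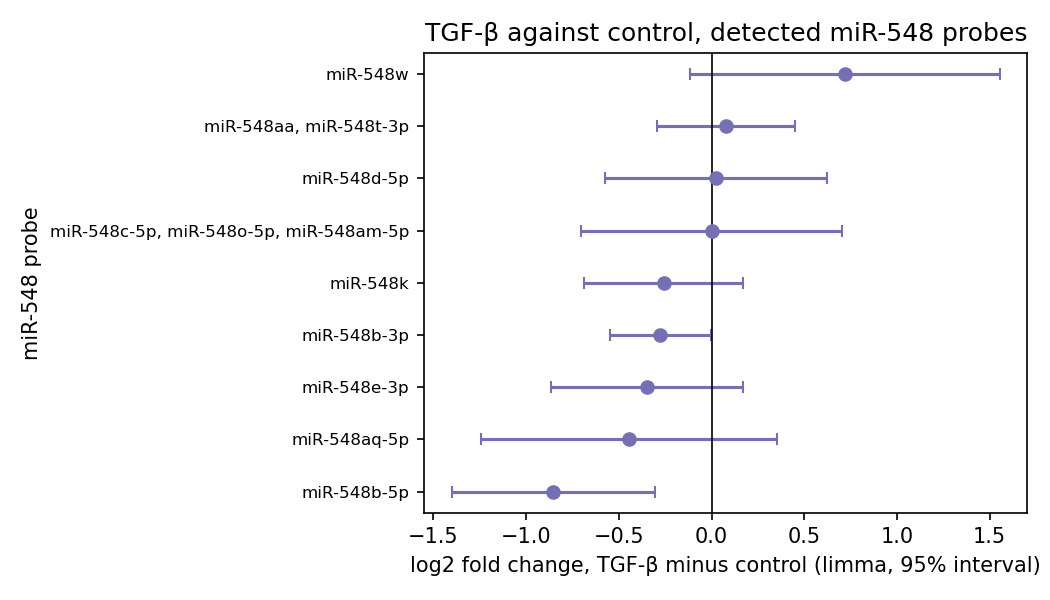
Log2 fold change of TGF-β minus control (horizontal axis, limma) for the 9 detected miR-548 probes, with 95% intervals as bars. The intervals of miR-548b-5p (-1.40 to -0.31) and miR-548b-3p (-0.55 to -0.01) lie below 0 before adjustment, and the other 7 include 0. The estimates of miR-548w and miR-548aq-5p each include an array at the floor.

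Both arms could be compared in 1 miR-548 precursor, miR-548b, of 28 whose arms are both named on the array. The per-array difference of the log2 levels, 5p minus 3p, was -3.19, -3.07 and -2.89 for control, against -3.93, -3.47 and -3.48 for TGF-β. All TGF-β arrays were below all control arrays, as in 7.85% of the 382 precursors with both arms past the filter. The difference changed by -0.58 on the log2 scale (SE 0.20, 95% interval -1.05 to -0.11), with a limma adjusted p of 0.426 over 382 precursors and an exact permutation p of 0.1. It was -0.15 with normexp on the local background and the offset of 50 units. No precursor passed an adjusted p of 0.05 in that limma fit (0%), and 30 had an unadjusted p under 0.05. The size of the difference itself has no meaning across probes, and its change between groups showed no unequal change of the arms past the threshold.

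**Figure D5:**
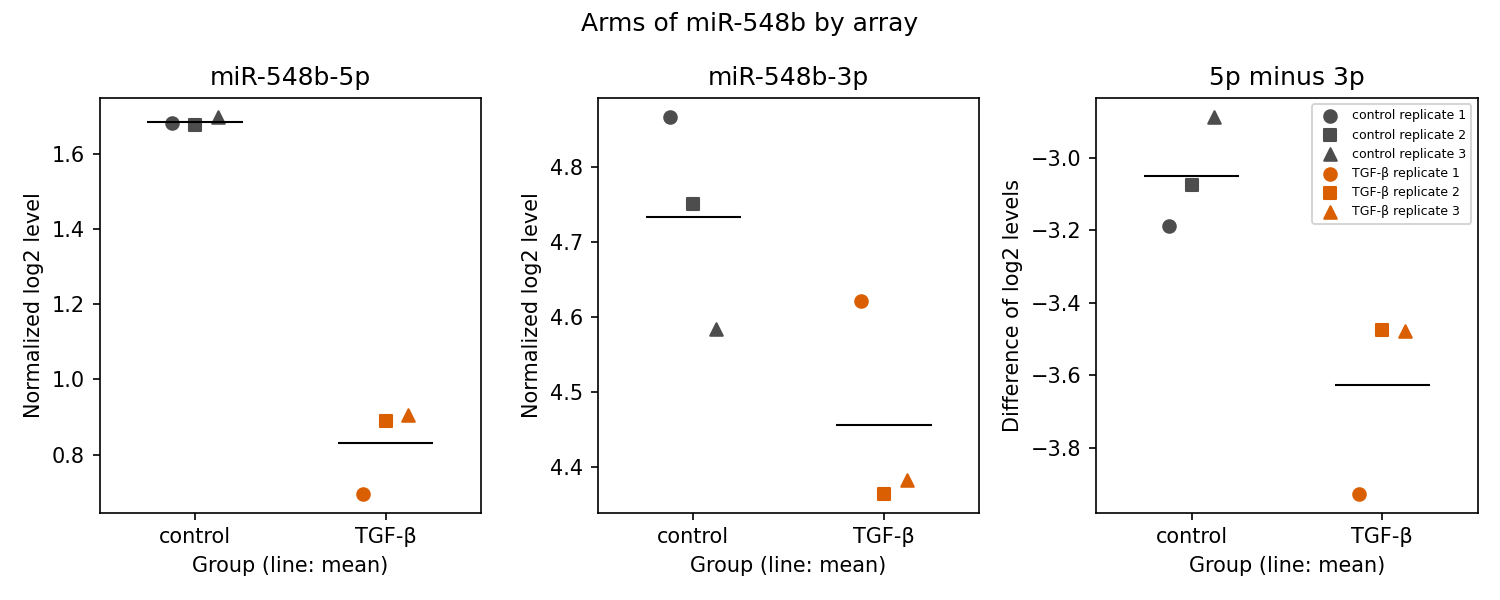
Normalized log2 level of miR-548b-5p and of miR-548b-3p, and their difference, on each array (points) with the group means (lines). The TGF-β points of miR-548b-5p (0.70 to 0.90) and of the difference lie below all control points, and those of miR-548b-3p overlap.

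Other miRNAs are given as counts in 3 lists. They hold miRNAs that share a seed with a member, miRNAs described as related to the same element, and other miRNAs derived from transposons. Of 5 probes that share a seed with a miR-548 member, 1 passed the filter, with a log2 fold change of -0.04. Of 4 probes of miR-570-3p, miR-579-5p, miR-579-3p and miR-603, 3 passed. Of these, miR-579-5p passed through the TGF-β group and is not read, and the log2 fold changes of miR-579-3p and miR-570-3p, detected on all arrays, were -0.15 and -0.09. Of 9 probes of other miRNAs described as derived from transposons (miR-28, miR-95, miR-151a, miR-340 and miR-1302), 7 passed, with a median of 0.04. No probe of these 3 lists passed an adjusted p of 0.05 by limma.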

How the data were processed

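The files that the authors deposited for the 6 arrays give a median intensity for each of 3200 spots and its surroundings (local background), linear and not normalized, and a table of processed intensities. The table was rebuilt from the scanner values to within rounding to whole numbers (largest difference 0.5): the mean of the blank spots, 5% left out at each end, was subtracted and each array was scaled to a median of 25 over its detected miRNAs. Blank means were 18.2 to 21.3 units. Its direction and centring are thus known, and it was used only as an alternative.

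Here the same blank mean was subtracted, values were floored at 1 unit, brought to the same quantiles over the miRNA probes, and log2 values were fitted by lmFit and eBayes, using an intensity trend (limma 3.58.1, R 4.3.3), Benjamini-Hochberg adjusted over all miRNAs that passed the filter. Flagged spots were left out (3 miRNA spots, 0 of them miR-548). Arm differences were fitted without a trend. Figures used Python 3.11.15 and matplotlib 3.10.9. The steps were run on simulated arrays with known changes among detected miRNAs. The simulation held no difference between slides or in scale between arrays, so it says nothing of slide effects. The study's methods speak of independent experiments for its data in general, and whether these arrays came from separate cultures is not given for them in the sources used here, so p-values measure the spread between arrays, which may be technical.

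Values by array are given for members past the threshold and the 8 of highest mean level. They are also given for the largest rises and falls with groups apart, arms of a precursor with both arms detected, and any detected in 1 group alone. Mean level served only to choose members, and no order of the miRNAs is read from it. miR-548aq-5p was added because it passed the filter. Members and lists were chosen with earlier results of these data known. Alternatives were other background corrections, scalings, floors, filters, detection limits and tests, the replicate number as a block and each array left out.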

Additional observations from a re-analysis of the deposited data

How the results depend on the processing

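The count of miR-548 probes called was 0 under all alternatives but limma without the trend and the methods' t-test with Benjamini-Hochberg adjustment, with 1 each (miR-548b-5p, log2 fold change -0.85). Among all miRNAs, calls fell from 58 to 0 with normexp on the local background and an offset of 50, which changes background, method and offset together, 35 without normalization, 20 with no filter, 31 without the trend, 17 by the methods' t-test and 5 by that test with Bonferroni adjustment (added after seeing the data, 0 miR-548 calls). With an array left out they were 32 to 49 (32 without TGF-β replicate 2, 34 without TGF-β replicate 3), and miR-548 calls stayed at 0. The lower share of the calls was 34.5%, against 22.9% without normalization and 11.1% in the deposited values, which moved the median of all miRNAs to 0.11. With the replicate block, 61 were called and 0 miR-548 probes; the numbers were not taken as pairs, since same-numbered arrays correlated at 0.13, 0.11 and -0.03. With that normexp setting, signs differed for miR-548b-3p (0.15), miR-548b-5p (0.0065), miR-548d-5p (-0.0027) and miR-548aa with miR-548t-3p (-0.0011). The last 3 are near 0. All kept their signs with 16 units added. The probe of miR-548c-5p turned without background correction (-0.00085), without normalization (-0.0070) and with 16 units added (-0.00099). With an array left out, it ranged from -0.19 to 0.22, miR-548d-5p from -0.25 to 0.17, miR-548aa with miR-548t-3p from -0.055 to 0.15, miR-548b-5p from -0.89 to -0.79 (adjusted p 0.162 to 0.268), miR-548b-3p from -0.36 to -0.21, miR-548e-3p from -0.48 to -0.24, miR-548k from -0.38 to -0.10, miR-548w from 0.42 to 0.98 and miR-548aq-5p from -0.64 to -0.22. The median over the 7 miR-548 probes detected on all arrays, chosen after seeing the data, ranged from -0.26 to -0.10 with an array left out, and was -0.0011 with that normexp setting, -0.05 without background correction, -0.06 with 16 units added and -0.12 in the deposited values. The miR-548b arm difference was below 0 in 9 of 9 alternatives, from -0.65 without TGF-β replicate 2 to -0.15 with that normexp setting. Arm calls were 0 to 1 with an array left out (1 without control replicate 2) and 0 with the replicate block. Detected miR-548 probes were 6 at 3 SD, 8 without trimming, 9 at the 95th percentile, 7 on all arrays and 34 on at least 1 array, and 9 to 12 with an array left out, which was chosen after seeing the data. Apart from the shrinking of fold changes by an added constant, stated above, the causes, such as low signal above the blank mean, were not tested. The fold change of miR-548b-3p moved too.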
